A study of Homo sapiens with 65 samples.

Results

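Human embryonic stem cells of the H9 line were differentiated through a blood-forming mesoderm protocol, and the endothelial fraction sorted on day 7 as SOX17-positive was compared with the whole culture of day 4. The comparison takes the 4 wild-type libraries whose titles give day 7 and the sort SOX17-positive, CD34-positive and CD43-negative, and the 4 wild-type libraries whose titles give day 4 unsorted in the mesoderm protocol, so 8 of the 65 RNA-seq libraries of the series. The parental line carried 2 heterozygous reporters, mCHERRY in SOX17 and GFP in RUNX1C, and both groups had this genotype (SOX17 mCHERRY/w RUNX1C GFP/w). Both had grown in STAPEL medium, with BMP4, ACTIVIN A, VEGF, SCF and FGF2 from day 0 to day 4 and with the inhibitor SB431542 and the compound CHIR 99021 added from day 2 to day 4. From day 4 the day 7 cells received VEGF, SCF, FGF2 and IGF2 without the other earlier agents (BMP4, ACTIVIN A, SB431542 and CHIR 99021). The knockout groups used below (day 4 unsorted and day 7 SOX17-positive, 4 libraries each) came from a derivative of the same line in which the DNA-binding domain of RUNX1 was deleted, with the same media and sort. The SOX17-negative group of day 7 (4 wild-type libraries) came from the CD34-positive, CD43-negative gate with no SOX17 reporter signal.

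SB431542 blocks the receptors for ACTIVIN and TGF-beta, and CHIR 99021 inhibits the kinase GSK3 and so mimics Wnt signalling. In the embryo the first definitive blood cells bud from arterial endothelium of the aorta, and SOX17 is a transcription factor of that endothelium, which Notch signalling through DLL4 helps to specify. CD34 marks endothelium and blood progenitors, and CD43, encoded by SPN, marks cells that have entered the blood lineage. Lateral plate mesoderm, the tissue from which these cells arise, also gives heart, smooth muscle and limb mesenchyme.

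Day, medium, sort and library series coincided in this comparison: the day 4 libraries were unsorted and carry numbers from 31266 to 31320, and the day 7 libraries were sorted and carry numbers from 68685 to 68715, so the parts of these 4 cannot be told apart. In whole cultures a gene can also be low because fewer cells express it or because each cell holds less of its RNA, and these cannot be told apart either. The labels do not say whether the 4 libraries of a group came from separate differentiations, and the p-values thus reflect how far these libraries differ from each other, which may be technical. Total fragment counts ran from 14264618 to 17154784 at day 4 and from 15603647 to 18554432 at day 7. The share of counts on mitochondrially encoded genes was 3.196% to 3.76% at day 4 and 5.15% to 6.19% at day 7, with no overlap. Replicate 3 of day 4 stood apart from the other day 4 libraries on the second principal component, which held 6.42% of the variance against 84.0% for the first, which separated the groups. Counts without it stand beside the mesoderm, Wnt and retinoic acid results.

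In edgeR's quasi-likelihood test, 12586 of 20028 genes tested differed at an adjusted p under 0.05, which is 62.8%. Of these 6358 (31.7%) were higher and 6228 (31.1%) lower at day 7. A stricter test, which asks for a change beyond 2-fold, called 4097 genes (20.5%), with 2472 (12.3%) higher and 1625 (8.11%) lower. These shares are the background against which the counts per gene group are read: a group in which 31.7% of the genes rose did no more than all genes did. Levels below are counts per 1000000 counts (CPM) for each library in the order of replicates 1 to 4, and the log2 change is day 7 minus day 4 with its standard error (n = 4 and 4). Adjusted p-values are from edgeR with Benjamini-Hochberg adjustment over all genes tested. The median log2 change over all genes tested was -0.02. In 58.3% of all genes tested the 4 and 4 libraries did not overlap, 29% with day 7 higher and 29.3% with day 7 lower.

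The 3 genes taken as marks of this endothelium were near the floor at day 4 and abundant at day 7. EMCN, which encodes the endothelial sialomucin endomucin, was counted at 0.181, 0.0614, 0 and 0.0715 CPM at day 4. EMCN rose to 161, 110.1, 116 and 99.8 CPM at day 7. Its log2 change was 10.48 ± 0.33 (adjusted p = 3.02e-08). VWF, the platelet-binding protein that endothelium stores and secretes, stood at 5.73, 3.13, 1.63 and 1.22 CPM at day 4. VWF rose to 305, 337, 340.4 and 351 CPM at day 7 (log2 change 6.84 ± 0.38, adjusted p = 4.22e-07). DLL4, the Notch ligand of arterial endothelium, stood at 1.69, 2.64, 0.605 and 0.143 CPM at day 4. DLL4 rose to 210.3, 190.3, 211 and 307 CPM at day 7 (log2 change 7.49 ± 0.47, adjusted p = 7.99e-07). For each of the 3 the lowest day 7 library was far above the highest day 4 library. The genes behind the gate moved as the sort requires: SOX17 went from 2.23, 2.33, 0.484 and 1.14 CPM at day 4 to 166, 170.1, 149.6 and 221 CPM at day 7. CD34 went from 65.2, 39.96, 21.4 and 15.8 CPM at day 4 to 1182, 1272, 1033 and 1219 CPM at day 7. Since the sort chose for both, these levels are a check of the labels. SPN, the gate's CD43, stood at 1.03, 2.03, 4.72 and 2.50 CPM at day 4. SPN was at 1.90, 2.32, 1.52 and 1.76 CPM at day 7 (log2 change -0.43 ± 0.40, adjusted p = 0.36), and its groups overlapped.

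Against the marker sets of other cells, 11 of 11 endothelial markers rose and their summed level went from 1502 to 2311 CPM at day 4 to 10751 to 12243 CPM at day 7. The 5 blood markers summed to 1.93 to 9.13 CPM at day 4 and 5.86 to 7.76 CPM at day 7, with PTPRC under 1 CPM in every day 7 library; of the 3 that were tested SPI1, a factor of myeloid cells, rose, from 0.121, 0.368, 0.665 and 0.143 CPM at day 4 to 1.957, 1.58, 1.31 and 0.706 CPM at day 7 (log2 change 2.07 ± 0.49, adjusted p = 0.00416). All 3 tested cardiac markers fell, from a sum over the 4 markers of 44.6 to 117 to 3.71 to 7.07 CPM. The 6 smooth muscle and mesenchyme markers summed to 616 to 1624 CPM at day 4 and 32.7 to 61.3 CPM at day 7. In that set COL1A1, PDGFRB and LUM fell and carried most of the day 4 sum, DCN was not called, and the contractile genes ACTA2 and MYH11 were called higher. The 5 epithelial and endodermal markers summed to 112 to 241 and 5.60 to 10.8 CPM, with FOXA2 at 0 in all day 7 libraries. The pluripotency markers POU5F1, NANOG and SOX2 together did not exceed 0.261 CPM at day 7, and SOX1 and SOX2 were at 0. Among the markers of the other cells ACTA2 had the highest mean level at day 7.

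**Figure D1:**
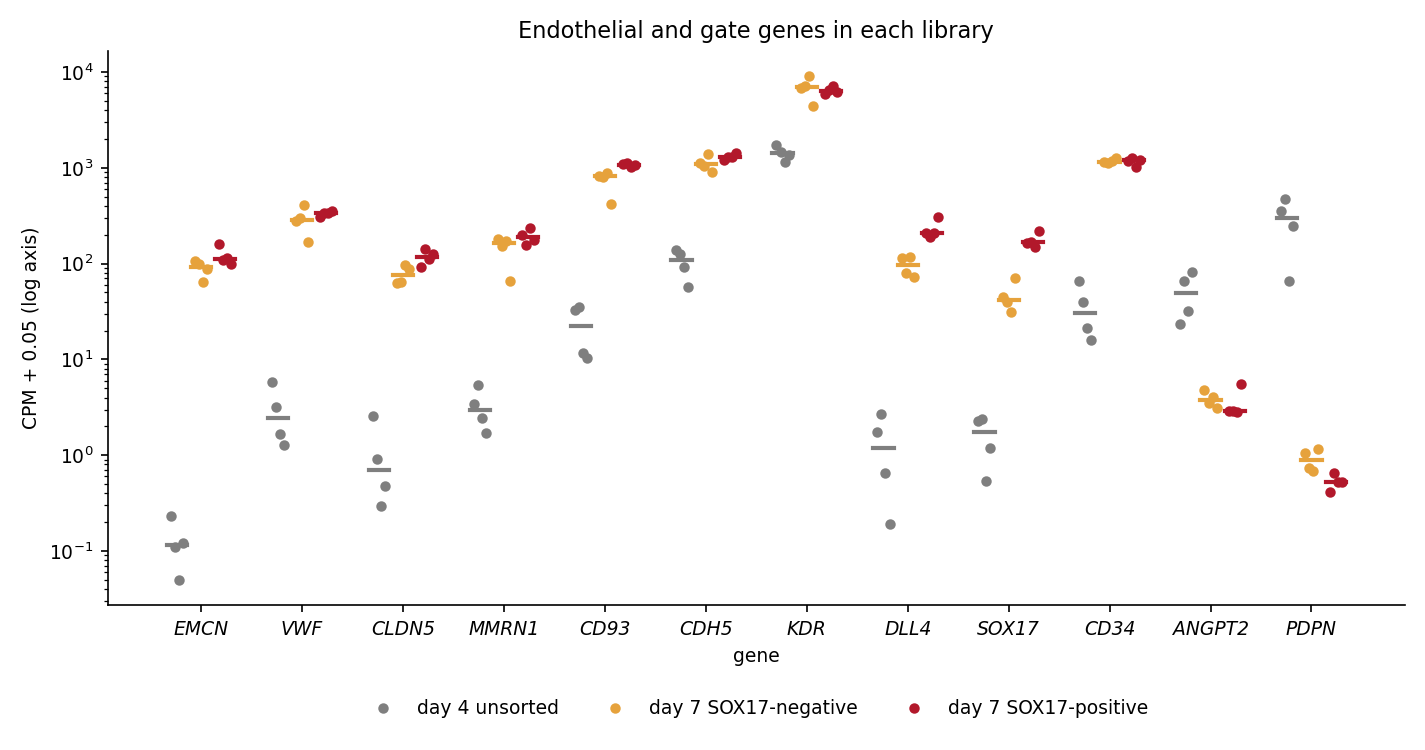
Level of 12 genes in each library on a logarithmic axis (CPM plus 0.05, so that 0 can be drawn), with day 4 unsorted, day 7 SOX17-negative and day 7 SOX17-positive libraries as separate points (4 each) and a bar at each group's median. EMCN, VWF and DLL4 lie between 99.8 and 351 CPM in the day 7 SOX17-positive libraries and under 6 CPM at day 4, while ANGPT2 and PDPN go the opposite way.

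Of 26 endothelial surface and junction genes, 24 rose, 1 fell and 1 was not called, and the 24 and the 1 were also called beyond 2-fold. The list's median log2 change was 3.27. CLDN5, the tight junction protein of vessels, stood at 2.53, 0.859, 0.242 and 0.429 CPM at day 4. CLDN5 rose to 91.4, 141, 111 and 125 CPM at day 7 (log2 change 6.84 ± 0.45, adjusted p = 1.06e-06). MMRN1, a secreted carrier protein of platelets and endothelium, stood at 3.38, 5.40, 2.42 and 1.65 CPM at day 4. MMRN1 rose to 199, 157, 236 and 178 CPM at day 7 (log2 change 5.92 ± 0.30, adjusted p = 2.7e-07). CD93, a C-type lectin-like receptor of endothelium and early blood progenitors, stood at 32.9, 34.9, 11.7 and 10.4 CPM at day 4. CD93 rose to 1086, 1125, 1018 and 1065 CPM at day 7 (log2 change 5.60 ± 0.42, adjusted p = 2.08e-06). Other members of the list had higher levels at day 4, and of these KDR rose by less than the list's median. KDR, the main VEGF receptor, stood at 1726, 1465, 1140.2 and 1376 CPM at day 4. KDR rose to 5948, 6533, 7194 and 6156 CPM at day 7 (log2 change 2.20 ± 0.15, adjusted p = 1.13e-06). CDH5, the cadherin of endothelial junctions, stood at 139, 126, 93.2 and 57.7 CPM at day 4. CDH5 rose to 1199, 1289, 1305 and 1435 CPM at day 7 (log2 change 3.68 ± 0.25, adjusted p = 1.28e-06). Both were present in the whole day 4 culture at more than 50 CPM in every library. PECAM1, an adhesion molecule of the same junctions, stood at 103, 90.7, 58.8 and 67.3 CPM at day 4. PECAM1 rose to 711, 811, 764 and 895 CPM at day 7 (log2 change 3.34 ± 0.18, adjusted p = 4e-07). TIE1, an orphan partner of the angiopoietin receptor TEK, stood at 62.8, 62.4, 44.6 and 33.8 CPM at day 4. TIE1 rose to 898, 938, 912 and 1042 CPM at day 7 (log2 change 4.24 ± 0.20, adjusted p = 2.01e-07). ESAM, another junction protein, had day 4 levels that differed among libraries by more than 5-fold, at 52.5, 36.8, 9.25 and 13.4 CPM at day 4. ESAM rose to 247, 292, 236 and 317 CPM at day 7 (log2 change 3.31 ± 0.47, adjusted p = 0.000164). None of these groups overlapped, which held for 58.3% of all genes tested.

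The exception among the endothelial genes was ANGPT2, the angiopoietin that loosens vessels and is made by sprouting endothelium, at 23.3, 65.7, 32.2 and 82.4 CPM at day 4. ANGPT2 fell to 2.81, 2.86, 2.77 and 5.53 CPM at day 7 (log2 change -3.83 ± 0.43, adjusted p = 3.34e-05). The gene of the list that was not called, JAM2, was named after its value was seen and stood at 32.2, 9.88, 13.97 and 14.2 CPM at day 4. JAM2 was at 21.8, 42.7, 20.4 and 31.7 CPM at day 7 (log2 change 0.75 ± 0.36, adjusted p = 0.092); without replicate 1 of day 4, its highest there, it was called higher (log2 change 1.22, adjusted p = 0.00371), as it was when 52 libraries shared a fit (0.0384). TEK itself stood at 168, 189.7, 103 and 202 CPM at day 4. TEK rose to 659, 611, 747 and 732 CPM at day 7 (log2 change 2.08 ± 0.19, adjusted p = 8.37e-06).

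The promoters of 3 endothelial genes that rose are shown because ETS factors, the family of ERG and FLI1, recognise a core that can be searched for in sequence, and because ERG rose here as well, from 48.9, 33.9, 50.7 and 24.97 CPM at day 4 to 322, 341, 307 and 277 CPM at day 7 (log2 change 3.00 ± 0.21, adjusted p = 1.66e-06). EMCN and TIE1 are genes described above; ROBO4, a roundabout receptor of endothelium, was added after its values were seen. ROBO4 stood at 5.67, 4.17, 1.15 and 0.644 CPM at day 4. ROBO4 rose to 38.8, 50.95, 32.3 and 35.5 CPM at day 7 (log2 change 3.76 ± 0.49, adjusted p = 9.03e-05). Each sequence is the 250 bases upstream of the RefSeq start on the gene's own strand in GRCh38.p14, 5′ to 3′, and the capitals mark AGGAAG or its reverse complement.
EMCN, chr4:100518023-100518272, minus strand: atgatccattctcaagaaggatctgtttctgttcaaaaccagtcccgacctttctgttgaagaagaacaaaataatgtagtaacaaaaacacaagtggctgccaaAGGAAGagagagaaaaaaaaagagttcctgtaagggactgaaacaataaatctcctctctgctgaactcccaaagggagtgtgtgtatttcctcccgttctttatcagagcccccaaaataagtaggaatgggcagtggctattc
TIE1, chr1:43300732-43300981, plus strand: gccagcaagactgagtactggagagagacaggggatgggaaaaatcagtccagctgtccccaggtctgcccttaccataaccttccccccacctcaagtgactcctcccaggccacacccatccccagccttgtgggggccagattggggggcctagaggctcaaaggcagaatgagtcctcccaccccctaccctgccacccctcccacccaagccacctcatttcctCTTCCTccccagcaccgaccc
ROBO4, chr11:124897866-124898115, minus strand: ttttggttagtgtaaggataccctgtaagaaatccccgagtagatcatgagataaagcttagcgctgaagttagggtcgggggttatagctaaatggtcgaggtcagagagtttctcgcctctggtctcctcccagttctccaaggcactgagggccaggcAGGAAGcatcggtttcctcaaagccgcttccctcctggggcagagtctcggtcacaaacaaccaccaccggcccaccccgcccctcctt
AGGAAG was searched on both strands, and the first base of the match lay 145 bases before the start in EMCN, 21 in TIE1 and 89 in ROBO4. It was present in 53.3% of the 15 endothelial surface genes whose promoter is in the table, in 34.9% of the 1398 promoters of genes higher beyond 2-fold, in 27.1% of the 1061 of genes lower beyond 2-fold and in 3479 of the 12415 of all genes tested. The mesenchyme and smooth muscle list, most of which fell, had it in 53.8% of 13 promoters. The related core CGGAAG, also of the ETS family, went the other way: it was in none of the 15 endothelial promoters, in 14.4% of the promoters of genes that rose and in 14.8% of those of genes that fell, against 26.2% of all. A match is a description of the letters in this window. All 3 promoters shown hold AGGAAG, which 53.3% of the endothelial list did, so they are examples and do not stand for the list.

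Among 13 arterial genes, 12 were tested and 9 rose, 7 of them beyond 2-fold, while 1 fell. After DLL4 the largest change was in NOTCH4, an endothelial Notch receptor, at 5.19, 6.997, 2.90 and 3.79 CPM at day 4. NOTCH4 rose to 333, 316, 308 and 403 CPM at day 7 (log2 change 6.19 ± 0.25, adjusted p = 9.09e-08). Ligand, receptor and gap junction genes of arteries thus rose alongside a transcription factor. MECOM, a zinc-finger factor of arterial endothelium and blood stem cells, stood at 4.16, 5.16, 8.04 and 4.86 CPM at day 4. MECOM rose to 212, 186, 239 and 256 CPM at day 7 (log2 change 5.35 ± 0.22, adjusted p = 9.09e-08). GJA4, a gap junction protein of arteries, stood at 13.03, 17.5, 5.08 and 7.08 CPM at day 4. GJA4 rose to 210.0, 261, 193 and 387 CPM at day 7 (log2 change 4.65 ± 0.39, adjusted p = 4.93e-06). The semaphorin SEMA3G stood at 18.04, 19.9, 13.3 and 10.2 CPM at day 4. SEMA3G rose to 149, 137, 112 and 204 CPM at day 7 (log2 change 3.31 ± 0.24, adjusted p = 1.98e-06). EFNB2, the ephrin that marks arteries, stood at 87.4, 132, 112 and 113 CPM at day 4. EFNB2 rose to 594, 539, 646 and 853 CPM at day 7 (log2 change 2.59 ± 0.17, adjusted p = 1.17e-06). In DLL4, NOTCH4, GJA4, SEMA3G and EFNB2 replicate 4 was the highest of the day 7 libraries, and in MECOM as well.

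3 arterial markers had smaller changes than the genes above. HEY2, a Notch-induced transcriptional repressor that marks arteries, stood at 42.8, 46.2, 41.4 and 31.05 CPM at day 4. HEY2 rose to 65.1, 51.4, 56.7 and 92.8 CPM at day 7, a small change (log2 change 0.75 ± 0.19, adjusted p = 0.00611) that was not beyond 2-fold and was not called when all 52 mesoderm libraries shared a fit (0.1). GJA5, another arterial gap junction gene, stood at 24.6, 47.1, 71.8 and 36.8 CPM at day 4. GJA5 rose to 119, 115, 107 and 262 CPM at day 7 (log2 change 1.77 ± 0.37, adjusted p = 0.00183). CXCR4, the chemokine receptor that also appears on early mesoderm and endoderm, stood at 121, 72.4, 23.9 and 62.1 CPM at day 4. CXCR4 was at 42.1, 55.2, 34.8 and 137 CPM at day 7, with groups that overlapped (log2 change -0.02 ± 0.51, adjusted p = 0.969). IGFBP3, an insulin-like growth factor binding protein, fell from 53.2, 23.2, 7.44 and 28.6 CPM at day 4 to 3.36, 4.75, 4.13 and 7.06 CPM at day 7 (log2 change -2.51 ± 0.50, adjusted p = 0.00137).

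How much of this belonged to the SOX17 gate was read from the SOX17-negative libraries of the same day, which share no library with day 4. In the fit of the SOX17-positive against the SOX17-negative libraries, 208 of 19835 genes (1.05%) were called, 127 higher (0.64%) and 81 lower (0.408%). The balance was nearer to even in DESeq2, with 255 higher and 240 lower, and without a filter on low counts, with 254 and 249. With the replicate number as a block 395 genes were called, 194 higher and 201 lower. The arterial list held 10 of the 127 (of 12 tested), with a median log2 difference of 1.25. Without replicate 4 of the SOX17-negative libraries the fit called 400 genes and 11 of the arterial list; without any other single library it called 92 to 143 genes, the fewest without replicate 4 of the SOX17-positive ones, and as few as 4 of the list, without replicate 2 or 3 of the SOX17-negative ones. The SOX17-negative libraries against day 4 called 9417 of 19808 genes (47.5%); that fit shares its day 4 libraries with the first comparison, and in it 23 of 25 endothelial surface genes rose, while of 12 arterial genes 6 rose and 4 fell. CXCR4 was at 4.46 to 12.9 CPM in the SOX17-negative libraries and so differed between the fractions (log2 difference 2.96 ± 0.46, adjusted p = 0.0109), while its change from day 4 was not called. GJA5 was at 29.1 to 59.7 CPM in the SOX17-negative libraries (log2 difference 2.00 ± 0.32, adjusted p = 0.0137; 0.0603 and 0.0517 without replicate 2 or 3 of them), and HEY2 at 11.9 to 28.3 CPM (log2 difference 1.64 ± 0.25, adjusted p = 0.0113). DLL4 was at 72.1 to 117 CPM there (log2 difference 1.26 ± 0.20, adjusted p = 0.0122; 0.0575 without replicate 2 of the SOX17-negative libraries), and NOTCH4 at 79.6 to 173 CPM (log2 difference 1.41 ± 0.21, adjusted p = 0.00937). So for DLL4 and NOTCH4 the SOX17-negative libraries lay between day 4 and the SOX17-positive ones, whereas for HEY2, GJA5 and CXCR4 they lay within or below the day 4 range. EMCN and VWF were not called between the fractions (log2 difference 0.44 ± 0.19, adjusted p = 0.538, and log2 difference 0.21 ± 0.21, adjusted p = 0.939).

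**Figure D2:**
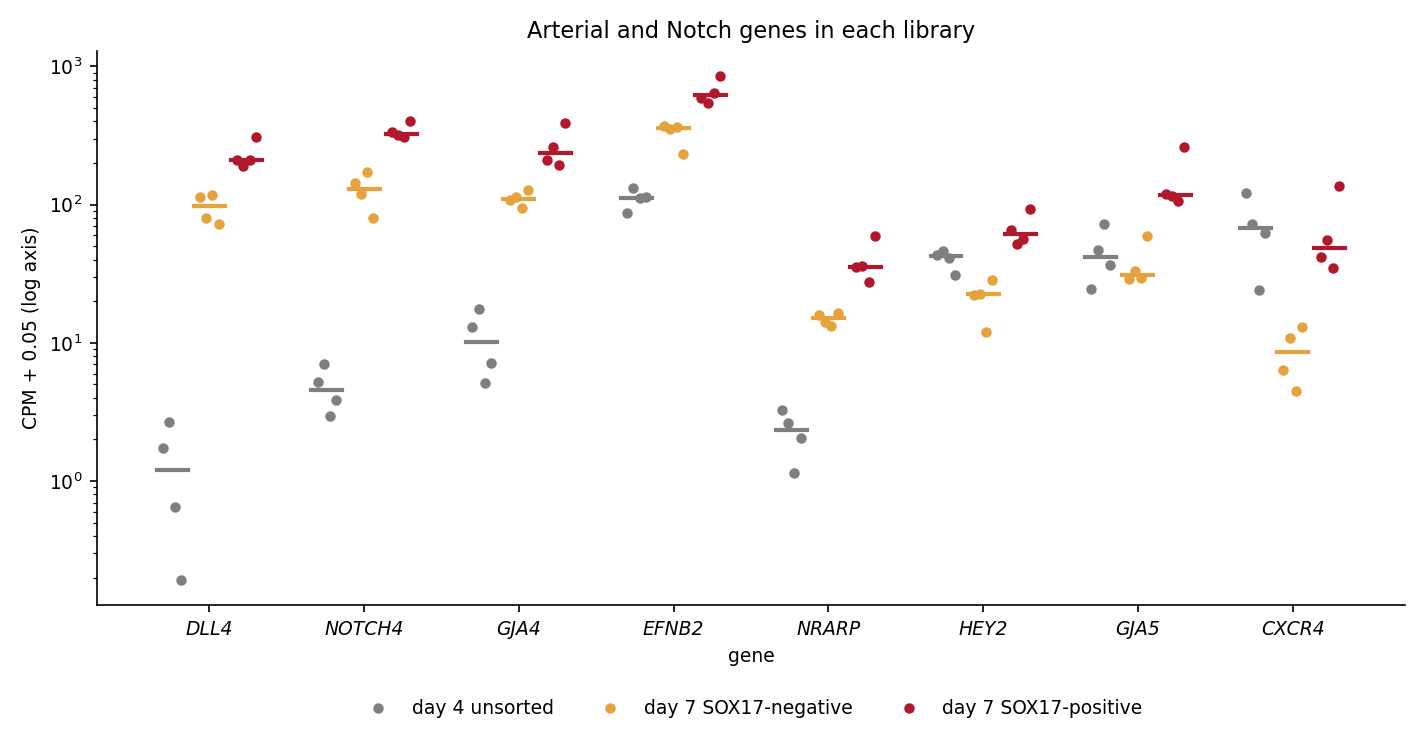
Level of 8 arterial and Notch genes in each of the 4 libraries of day 4 unsorted, day 7 SOX17-negative and day 7 SOX17-positive cells (CPM, logarithmic axis, bar at the median). DLL4 and NOTCH4 step upward from day 4 through the SOX17-negative to the SOX17-positive libraries, while CXCR4 is at 34.8 to 137 CPM in the SOX17-positive libraries, overlapping the day 4 range of 23.9 to 121 CPM, and lowest in the SOX17-negative ones.

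Of 12 venous and lymphatic genes, 9 rose (75%) and 2 fell (16.7%), against 31.7% and 31.1% of all genes tested. FLT4, the receptor of VEGF-C, stood at 10.4 to 23.3 CPM at day 4 and 382 to 487 CPM at day 7 (log2 change 4.66 ± 0.23). STAB2, a scavenger receptor of sinusoidal endothelium, stood at 0.501 to 6.53 CPM at day 4 and 43.4 to 183 CPM at day 7 (log2 change 5.16 ± 0.80), with replicate 3 of day 7 more than 3-fold above the other 3. LYVE1, a hyaluronan receptor of lymphatic vessels, had no count in any day 4 library and 4.40, 4.08, 2.35 and 1.53 CPM at day 7, at least 67.9-fold higher against a floor of 3 counts over the group. The 2 that fell were PDPN, a mucin-like glycoprotein of lymphatic vessels, epithelium and mesenchyme, which stood at 65.1 to 475 CPM at day 4 and 0.367 to 0.609 CPM at day 7 (log2 change -9.16 ± 0.70), and CCBE1, a secreted protein needed for lymphatic growth, which went from 7.84, 4.60, 27.6 and 16.6 CPM at day 4 to 3 fragments in the 4 day 7 libraries, a count ratio of 307 (95% counting interval 104.7 to 1492). NR2F2, the venous regulator, was added after its value was seen; it stood at 2.06 to 7.60 CPM at day 4 and 92.0 to 145 CPM at day 7 (log2 change 4.60 ± 0.36) and was at 144 to 255 CPM in the SOX17-negative libraries. Venous and arterial genes thus rose together in the SOX17-positive libraries.

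The Notch pathway beyond DLL4 and NOTCH4 changed in both directions: of 15 genes 8 rose, 7 of them beyond 2-fold, and 6 fell, none beyond 2-fold. These were 53.3% and 40% of the list, against 31.7% and 31.1% of all genes tested. MFNG, a glycosyltransferase that tunes Notch receptors, stood at 3.62, 5.59, 3.39 and 1.93 CPM at day 4. MFNG rose to 75.1, 61.7, 59.6 and 63.1 CPM at day 7 (log2 change 4.17 ± 0.25, adjusted p = 5.53e-07). LFNG, an enzyme of the same kind, stood at 7.06, 8.16, 3.75 and 2.15 CPM at day 4. LFNG rose to 26.7, 31.5, 29.2 and 33.98 CPM at day 7 (log2 change 2.54 ± 0.32, adjusted p = 7.76e-05). NRARP, a target and feedback regulator of Notch, stood at 3.198, 2.58, 1.09 and 2.003 CPM at day 4. NRARP rose to 35.1, 35.8, 27.5 and 59.4 CPM at day 7 (log2 change 4.17 ± 0.33, adjusted p = 3.33e-06). Enzymes that modify the receptor and a target of the pathway thus rose together. HES4, a target of the HES family, stood at 1.57, 2.09, 1.09 and 0.715 CPM at day 4. HES4 rose to 16.8, 17.9, 10.4 and 29.98 CPM at day 7 (log2 change 3.79 ± 0.39, adjusted p = 1.67e-05). The ligand JAG2 stood at 19.8, 18.8, 10.5 and 8.87 CPM at day 4. JAG2 rose to 136, 146, 96.8 and 137 CPM at day 7 (log2 change 3.18 ± 0.26, adjusted p = 4.11e-06). DLL3, a ligand of presomitic mesoderm, fell from 10.4, 5.46, 34.9 and 5.15 CPM at day 4 to 4.59, 4.88, 3.61 and 3.998 CPM at day 7 (log2 change -1.70 ± 0.57, adjusted p = 0.0235; 0.0609 and 0.0563 without replicate 3 or 4 of day 7, 0.0839 in limma-trend), and HEYL, a repressor related to HEY2, from 8.14, 10.004, 4.66 and 7.44 CPM at day 4 to 2.57, 2.13, 1.83 and 4.35 CPM at day 7 (log2 change -1.45 ± 0.31, adjusted p = 0.00221).

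Of the 18 VEGF, angiopoietin and TGF family genes 17 were tested, with 6 higher and 7 lower, shares not far from those of all genes. Among the 5 with the largest changes, 2 receptors and a phosphatase rose and 2 ligands fell. PTPRB, the endothelial phosphatase of TEK, stood at 11.4 to 28.4 CPM at day 4 and 269 to 287 CPM at day 7 (log2 change 3.85 ± 0.28). Each of the 5 had groups that did not overlap, as did 58.3% of all genes tested. TGFBR3, a co-receptor of TGF-beta ligands, stood at 15.7 to 33.6 CPM at day 4 and 283 to 352 CPM at day 7 (log2 change 3.61 ± 0.21). ACVRL1, the endothelial receptor of BMP9, stood at 32.6 to 42.8 CPM at day 4 and 251 to 315 CPM at day 7 (log2 change 3.00 ± 0.12). The ligand PGF, which binds FLT1, fell from 39.8 to 50.7 CPM at day 4 to 1.71 to 3.53 CPM at day 7 (log2 change -4.09 ± 0.21), and TGFB2 from 37.5 to 73.1 CPM at day 4 to 2.09 to 8.94 CPM at day 7 (log2 change -3.67 ± 0.40).

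Of 33 endothelial and blood transcription factors 32 were tested, 25 rose (17 beyond 2-fold) and 3 fell. FOXC2, a forkhead factor of vessels, stood at 0.0603, 0, 0.302 and 0 CPM at day 4. FOXC2 rose to 13.1, 10.8, 14.02 and 25.6 CPM at day 7 (log2 change 7.31 ± 0.59, adjusted p = 3.42e-06). It was nearly absent at day 4. KLF2, induced by flow, stood at 1.87, 1.78, 0.786 and 1.65 CPM at day 4. KLF2 rose to 31.2, 51.3, 36.8 and 43.5 CPM at day 7 (log2 change 4.76 ± 0.25, adjusted p = 3.32e-07). SOX18, the SOXF relative of SOX17, stood at 3.56, 3.01, 0.967 and 0.859 CPM at day 4. SOX18 rose to 48.9, 59.7, 32.6 and 74.2 CPM at day 7 (log2 change 4.69 ± 0.43, adjusted p = 8.41e-06). Blood genes of the list also rose: TAL1, a factor that specifies blood, stood at 82.8, 64.9, 58.3 and 50.9 CPM at day 4. TAL1 rose to 171, 164, 198 and 201 CPM at day 7 (log2 change 1.54 ± 0.15, adjusted p = 1.27e-05). MYB, needed by definitive blood, stood at 7.24, 6.32, 5.26 and 7.87 CPM at day 4. MYB rose to 41.9, 42.97, 54.3 and 54.2 CPM at day 7 (log2 change 2.88 ± 0.16, adjusted p = 3.75e-07). Both were added after their values were seen. RUNX1, the factor that endothelium needs to give blood and which is in no list, stood at 67.8, 36.5, 27.5 and 35.8 CPM at day 4. RUNX1 rose to 87.7, 90.2, 149 and 92.1 CPM at day 7 (log2 change 1.35 ± 0.28, adjusted p = 0.00166). Its groups did not overlap, and the change was not called beyond 2-fold. 3 factors of the list fell. ETV2, the early inducer of endothelium, named after its value was seen, stood at 2.59, 3.31, 6.59 and 2.15 CPM at day 4. ETV2 fell to 0.795, 1.22, 0.575 and 0.529 CPM at day 7 (log2 change -2.21 ± 0.42, adjusted p = 0.00099). RUNX3, a relative of RUNX1, stood at 12.4, 7.67, 3.33 and 3.93 CPM at day 4. RUNX3 fell to 0.122, 0.0609, 0.0523 and 0.0588 CPM at day 7 (log2 change -6.39 ± 0.61, adjusted p = 1.14e-05). KLF1, the erythroid Krüppel-like factor, stood at 1.99, 4.23, 4.11 and 6.01 CPM at day 4. KLF1 fell to 0, 0.0609, 0.209 and 0 CPM at day 7 (log2 change -5.66 ± 0.63, adjusted p = 3.19e-05).

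Blood genes rose in part, at low levels. Of 26 blood genes 13 were tested, and 8 rose (61.5%) and 2 fell (15.4%), against 31.7% and 31.1% of all genes tested. GP1BA, a platelet glycoprotein, stood at 1.21 to 2.07 CPM at day 4 and 7.82 to 13.5 CPM at day 7 (log2 change 2.71 ± 0.24). AIF1, a calcium-binding protein of macrophages, stood at 0.181 to 0.907 CPM at day 4 and 12.1 to 19.8 CPM at day 7 (log2 change 5.17 ± 0.35). CD36, a scavenger receptor of platelets, macrophages and microvessels, stood at 0 to 0.483 CPM at day 4 and 0.941 to 3.35 CPM at day 7 (log2 change 3.27 ± 0.61). CORO1A, an actin regulator of white blood cells, fell from 9.25 to 13.5 CPM at day 4 to 1.65 to 2.29 CPM at day 7 (log2 change -2.54 ± 0.18), and RAC2, their GTPase, from 25.2 to 33.7 CPM at day 4 to 9.10 to 14.9 CPM at day 7 (log2 change -1.32 ± 0.17). The defining marker PTPRC (CD45) had 1 fragment in the 4 day 7 libraries together.

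Of 18 genes of flow response and vascular tone 7 rose and 3 fell. The 38.9% that rose was not far from the 31.7% of all genes tested. NPR1, the receptor of atrial natriuretic peptide, stood at 7.66 to 20.4 CPM at day 4 and 123 to 157 CPM at day 7 (log2 change 3.205 ± 0.27). NOS3, endothelial nitric oxide synthase, stood at 24.1 to 30.99 CPM at day 4 and 136 to 186 CPM at day 7 (log2 change 2.55 ± 0.12). PIEZO1, a channel opened by membrane stretch, stood at 51.7 to 63.95 CPM at day 4 and 248 to 269 CPM at day 7 (log2 change 2.22 ± 0.09). TFPI, an inhibitor of coagulation, stood at 179.5 to 253 CPM at day 4 and 764 to 1070.4 CPM at day 7 (log2 change 2.05 ± 0.16). The genes that fell included PLAT, tissue plasminogen activator, which stood at 8.34 to 52.8 CPM at day 4 and 2.88 to 4.55 CPM at day 7 (log2 change -3.15 ± 0.48).

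The mesoderm genes of the day 4 culture fell together. Of 24 lateral and cardiac mesoderm genes 23 were tested, and 19 fell, 18 of them beyond 2-fold, while 1 rose; the median log2 change was -3.94. TBX2, a T-box repressor of heart and limb, stood at 164, 76.4, 12.7 and 94.0 CPM at day 4. TBX2 fell to 0.245, 0.244, 0.209 and 0.118 CPM at day 7 (log2 change -8.66 ± 0.90, adjusted p = 1.89e-05). ALCAM, an adhesion molecule of early cardiac mesoderm, stood at 612, 510.4, 328 and 603 CPM at day 4. ALCAM fell to 2.75, 4.27, 2.30 and 3.65 CPM at day 7 (log2 change -7.28 ± 0.28, adjusted p = 7.86e-08). Neither had a day 7 library near its day 4 libraries. GATA4, a zinc-finger factor of heart and endoderm, stood at 15.5, 17.9, 8.10 and 13.4 CPM at day 4. GATA4 fell to 0.183, 0.305, 0.105 and 0.118 CPM at day 7 (log2 change -6.21 ± 0.37, adjusted p = 5.79e-07), and it also differed between the day 7 fractions, with 0.939 to 1.55 CPM in the SOX17-negative libraries (log2 difference -2.73 ± 0.39, adjusted p = 0.00817). TWIST1, a factor of mesenchyme, stood at 123, 97.7, 36.5 and 153 CPM at day 4. TWIST1 fell to 0.795, 1.28, 2.04 and 1.82 CPM at day 7 (log2 change -6.06 ± 0.48, adjusted p = 3.18e-06). PRRX1, a homeobox factor of limb mesenchyme, stood at 584, 315, 226 and 514 CPM at day 4. PRRX1 fell to 4.52, 7.80, 3.19 and 8.995 CPM at day 7 (log2 change -6.04 ± 0.43, adjusted p = 1.55e-06). The gene that rose was MEIS1, a homeobox partner of HOX proteins that blood stem cells use as well, at 24.1, 18.9, 11.7 and 24.7 CPM at day 4. MEIS1 rose to 138, 123, 137 and 166 CPM at day 7 (log2 change 2.86 ± 0.22, adjusted p = 2.39e-06). Replicate 3 held the lowest day 4 level of TBX2, ALCAM, GATA4, TWIST1 and PRRX1, and without it 20 of the list fell and 1 rose.

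Of 25 tested mesenchyme and smooth muscle genes 18 were lower, 15 beyond 2-fold, and 4 were higher, 3 of which are contractile genes of smooth muscle. COL6A3, a chain of collagen VI, stood at 4478, 7298, 2447 and 8504 CPM at day 4. COL6A3 fell to 29.4, 34.2, 11.3 and 27.2 CPM at day 7 (log2 change -7.77 ± 0.53, adjusted p = 1.25e-06). PDGFRB, the receptor that defines pericytes and mesenchyme, stood at 241, 249, 90.1 and 317 CPM at day 4. PDGFRB fell to 1.28, 1.04, 0.994 and 2.82 CPM at day 7 (log2 change -7.16 ± 0.48, adjusted p = 1.17e-06). COL1A1, a chain of collagen I, stood at 544, 1279.9, 493 and 1251 CPM at day 4. COL1A1 fell to 8.93, 17.6, 3.50 and 12.6 CPM at day 7 (log2 change -6.36 ± 0.55, adjusted p = 5.64e-06). These 3 code for the matrix and the growth factor receptor that set mesenchyme apart from endothelium. POSTN, a matrix protein of valves and mesenchyme, stood at 28.9, 131, 14.8 and 94.2 CPM at day 4. POSTN fell to 0.183, 0.914, 0.889 and 0.294 CPM at day 7 (log2 change -6.81 ± 0.82, adjusted p = 5.27e-05). The muscle filament gene DES stood at 2.84, 6.32, 7.19 and 4.22 CPM at day 4. DES fell to 0.183, 0, 0.209 and 0.0588 CPM at day 7 (log2 change -5.36 ± 0.53, adjusted p = 1.44e-05). TAGLN, an actin-binding protein of smooth muscle, stood at 2.17, 2.03, 1.81 and 2.22 CPM at day 4. TAGLN rose to 6.24, 5.55, 4.39 and 5.64 CPM at day 7 (log2 change 1.43 ± 0.18, adjusted p = 7.18e-05), a rise at a low level. MYH11, the smooth muscle myosin heavy chain, stood at 5.61, 6.26, 5.02 and 4.29 CPM at day 4. MYH11 rose to 6.79, 8.29, 6.75 and 7.88 CPM at day 7 (log2 change 0.51 ± 0.16, adjusted p = 0.0187; 0.058 without replicate 4 of day 4, 0.0613 without a filter and 0.052 in limma-trend). ACTA2, smooth muscle actin, stood at 11.3, 21.4, 17.96 and 11.7 CPM at day 4. ACTA2 rose to 20.4, 22.9, 17.8 and 31.6 CPM at day 7, with groups that overlapped (log2 change 0.60 ± 0.24, adjusted p = 0.0495). ACTA2 was not called in 5 of the 8 fits that left out a library (adjusted p = 0.0633 to 0.164), with other size factors (0.0518), in limma-trend (0.056) or when 52 libraries shared a fit (0.112). THY1 rose with groups that overlapped and stood at 134, 128, 60.5 and 56.7 CPM at day 4. THY1 rose to 169, 190.2, 127 and 213 CPM at day 7 (log2 change 0.91 ± 0.29, adjusted p = 0.0192; 0.0588 without replicate 4 of day 7). Outside the lists, VCAN, a large proteoglycan of embryonic matrix, had the largest drop in CPM and stood at 2786, 2569, 1099.8 and 2795 CPM at day 4. VCAN fell to 104, 118, 122 and 104.9 CPM at day 7 (log2 change -4.34 ± 0.29, adjusted p = 1.06e-06).

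The basement membrane genes changed in both directions, with 7 of 20 tested higher and 5 lower, shares near those of all genes. HSPG2, the vascular heparan sulphate proteoglycan perlecan, stood at 98.7 to 170.5 CPM at day 4 and 2165 to 3012 CPM at day 7 (log2 change 4.30 ± 0.20). COL15A1, a collagen of vessel basement membranes, stood at 1.27 to 21.7 CPM at day 4 and 54.03 to 133 CPM at day 7 (log2 change 3.39 ± 0.63). LAMA4, the laminin chain of endothelium, stood at 0.552 to 1.22 CPM at day 4 and 3.19 to 5.64 CPM at day 7 (log2 change 2.24 ± 0.29). The protease MMP9 stood at 2.22 to 3.74 CPM at day 4 and 25.9 to 56.3 CPM at day 7 (log2 change 3.77 ± 0.28) and its inhibitor TIMP3 at 78.4 to 146 CPM at day 4 and 476 to 617 CPM at day 7 (log2 change 2.10 ± 0.19). COL18A1, the source of endostatin, fell from 253 to 710.5 CPM at day 4 to 77.0 to 144 CPM at day 7 (log2 change -1.98 ± 0.31), and the protease ADAMTS1 from 187 to 513 CPM at day 4 to 72.6 to 83.8 CPM at day 7 (log2 change -1.83 ± 0.30). COL15A1 also differed between the day 7 fractions (log2 difference 1.76 ± 0.27, adjusted p = 0.0103).

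Among 20 integrins and cadherins 19 were tested, 5 rose (26.3%) and 8 fell (42.1%), against 31.7% and 31.1% of all genes tested. ITGB8, an integrin chain that activates TGF-beta, stood at 36.8 to 46.3 CPM at day 4 and 0.856 to 1.26 CPM at day 7 (log2 change -5.26 ± 0.16). ITGA8, a partner of the integrin beta-1 chain, stood at 2.35 to 7.68 CPM at day 4 and 132 to 182 CPM at day 7 (log2 change 5.20 ± 0.34). ITGA2, a collagen receptor chain, stood at 0.787 to 2.29 CPM at day 4 and 8.79 to 13.1 CPM at day 7 (log2 change 2.95 ± 0.29) and at 1.23 to 2.59 CPM in the SOX17-negative libraries (log2 difference 2.39 ± 0.26, adjusted p = 0.00189). CDH1, the epithelial cadherin, stood at 5.65 to 49.2 CPM at day 4 and 0.105 to 2.41 CPM at day 7 (log2 change -4.21 ± 0.82). CDH11, the mesenchymal one, stood at 813 to 1099 CPM at day 4 and 88.3 to 110.4 CPM at day 7 (log2 change -3.26 ± 0.14).

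Of the Wnt targets and secreted Wnt regulators 14 of 20 tested fell, all 14 beyond 2-fold, and none rose, with a median log2 change of -2.96. RSPO2, a secreted amplifier of Wnt signalling, stood at 104, 282, 45.6 and 225 CPM at day 4. RSPO2 fell to 0, 0.0609, 0.105 and 0.0588 CPM at day 7 (log2 change -11.26 ± 0.87, adjusted p = 2.72e-06). DKK2, a secreted modulator of Wnt receptors, had 82.0, 183, 5.32 and 97.6 CPM at day 4 and 2 fragments in the 4 day 7 libraries, a count ratio of 2987 (95% counting interval 826 to 24668). NKD1, an intracellular feedback inhibitor, stood at 883, 863, 189.5 and 740.4 CPM at day 4. NKD1 fell to 8.13, 8.41, 10.4 and 6.11 CPM at day 7 (log2 change -6.31 ± 0.49, adjusted p = 2.64e-06). NOTUM, a secreted enzyme that inactivates WNT proteins, stood at 26.7, 24.6, 4.78 and 8.51 CPM at day 4. NOTUM fell to 0.122, 0.122, 0.157 and 0.176 CPM at day 7 (log2 change -6.70 ± 0.71, adjusted p = 2.17e-05). An activator and several inhibitors of the pathway were thus among the genes that fell. SFRP2, a secreted WNT binder, stood at 9.17, 5.71, 8.77 and 7.37 CPM at day 4. SFRP2 fell to 0, 0.183, 0 and 0.0588 CPM at day 7 (log2 change -6.86 ± 0.50, adjusted p = 1.9e-06). APCDD1, a membrane inhibitor of Wnt signalling outside the list, was among the 8 genes outside the lists with the largest drop in CPM and stood at 921, 967, 223 and 833 CPM at day 4. APCDD1 fell to 16.3, 22.7, 14.4 and 14.8 CPM at day 7 (log2 change -5.40 ± 0.45, adjusted p = 4.19e-06). Replicate 3 of day 4 held the lowest level of RSPO2, DKK2, NKD1, NOTUM and APCDD1, and without it 14 of the list still fell and none rose.

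Among 20 tested WNT ligands and receptors 6 rose (30%) and 10 fell (50%), against 31.7% and 31.1% of all genes tested. WNT5A, a ligand of the non-canonical pathway, stood at 269 to 1040.3 CPM at day 4 and 13.02 to 16.5 CPM at day 7 (log2 change -5.14 ± 0.45), with replicate 3 the highest at day 4, and its relative WNT5B at 33.9 to 97.3 CPM at day 4 and 3.36 to 5.30 CPM at day 7 (log2 change -3.65 ± 0.35). Their receptor ROR1 stood at 65.5 to 189 CPM at day 4 and 9.10 to 13.6 CPM at day 7 (log2 change -3.47 ± 0.31). The frizzled receptors differed in direction: FZD7 fell from 149.99 to 361 CPM at day 4 to 6.95 to 10.5 CPM at day 7 (log2 change -5.05 ± 0.29), while FZD4, the receptor of vascular norrin signalling, rose from 16.6 to 44.3 CPM at day 4 to 134 to 158 CPM at day 7 (log2 change 2.51 ± 0.27) and FZD8 from 1.29 to 17.8 CPM at day 4 to 31.6 to 42.1 CPM at day 7 (log2 change 2.54 ± 0.62).

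**Figure D3:**
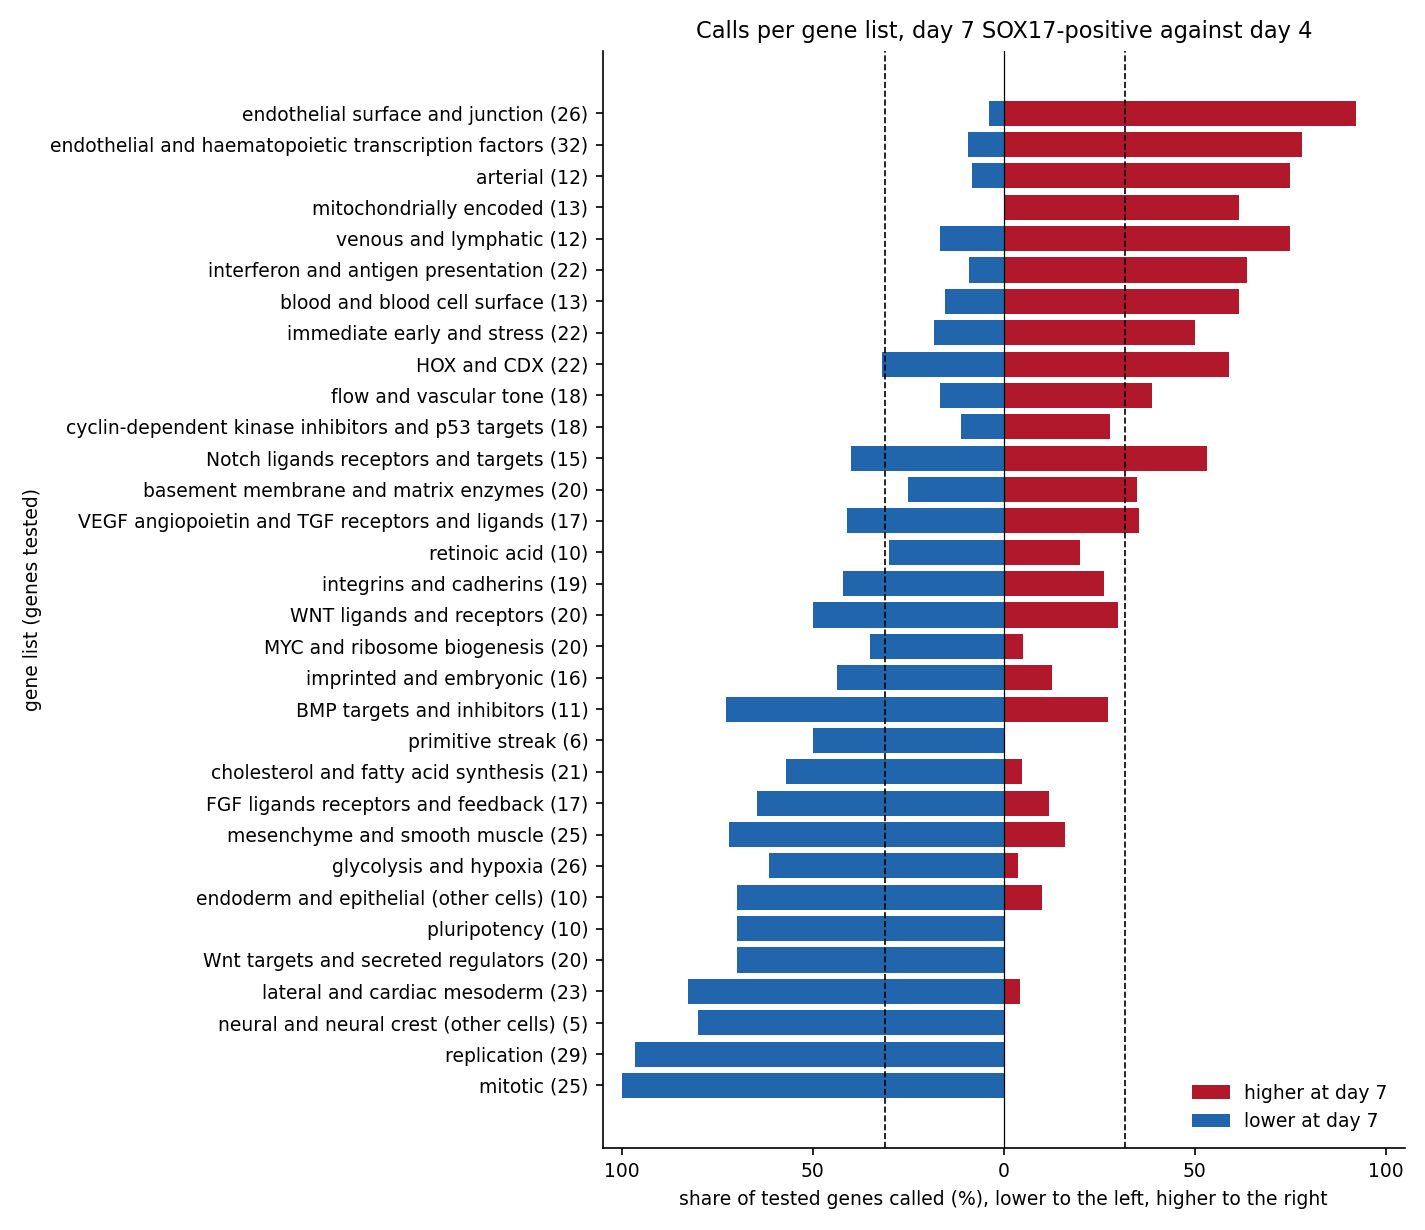
Share of the tested genes of each list that were called higher (to the right) or lower (to the left) at day 7 (adjusted p under 0.05), with the number of tested genes beside each name and dashed lines at the 31.7% higher and 31.1% lower of all genes tested. The endothelial list has the longest bar to the right and the mitotic and replication lists the longest to the left.

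Of 11 tested BMP targets and inhibitors 3 rose (27.3%) and 8 fell (72.7%), against 31.7% and 31.1% of all genes tested. ID2, an inhibitor of basic helix-loop-helix factors, stood at 100.4 to 148 CPM at day 4 and 22.2 to 32.8 CPM at day 7 (log2 change -2.22 ± 0.17). ID4 stood at 5.16 to 17.3 CPM at day 4 and 1.35 to 2.04 CPM at day 7 (log2 change -2.63 ± 0.35). SMAD9, a signal carrier of BMP receptors, stood at 85.1 to 199 CPM at day 4 and 31.9 to 39.7 CPM at day 7 (log2 change -2.12 ± 0.23). The other two ID genes rose instead: ID1 stood at 30.5 to 71.2 CPM at day 4 and 91.7 to 127 CPM at day 7 (log2 change 1.35 ± 0.26) and ID3 at 94.4 to 182 CPM at day 4 and 261 to 354 CPM at day 7 (log2 change 1.08 ± 0.21), neither beyond 2-fold. The inhibitors NOG, at 0.429 to 4.34 CPM at day 4 and 0.183 to 0.882 CPM at day 7 (log2 change -2.30 ± 0.74), and BMPER, at 5.67 to 119 CPM at day 4 and 9.11 to 11.1 CPM at day 7 (log2 change -2.21 ± 0.67), were called lower with groups that overlapped. NOG was not called without replicate 1 of day 4 (adjusted p = 0.066), in limma-trend on the log2 RPKM (0.065) or without replicate 1, 2 or 3 of day 7 (0.0528, 0.0594 and 0.0593), and BMPER not in limma-trend (0.0773).

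Of 17 tested FGF genes 2 rose (11.8%) and 11 fell (64.7%), against 31.7% and 31.1% of all genes tested. The receptor FGFR3 stood at 33.1 to 56.9 CPM at day 4 and 1.73 to 3.65 CPM at day 7 (log2 change -4.06 ± 0.26). FGFR2 stood at 90.7 to 449 CPM at day 4 and 18.5 to 34.8 CPM at day 7 (log2 change -3.52 ± 0.47). FGFR4 stood at 13.8 to 30.9 CPM at day 4 and 3.06 to 4.81 CPM at day 7 (log2 change -2.41 ± 0.27). FGFR1, by contrast, stood at 219 to 242 CPM at day 4 and 418 to 511 CPM at day 7 (log2 change 1.03 ± 0.10). IL17RD, a feedback inhibitor of FGF receptors, stood at 83.1 to 143 CPM at day 4 and 12.3 to 16.999 CPM at day 7 (log2 change -2.85 ± 0.19). FGF2 itself, the cells' own transcript, stood at 8.90 to 23.8 CPM at day 4 and 40.8 to 58.9 CPM at day 7 (log2 change 1.77 ± 0.27). FGF19, a ligand of primitive streak mesoderm and gut, had 6.03, 36.5, 200.2 and 31.4 CPM at day 4 and no count at day 7, at least 1528-fold lower.

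Of 10 retinoic acid genes tested 2 were higher (20%) and 3 lower (30%), against 31.7% and 31.1% of all genes tested. Without replicate 3 of day 4 it was 4 and 4, and without replicate 4 of day 7 5 were lower. ALDH1A2, the embryo's main retinoic acid synthesising enzyme, stood at 19.5 to 42.4 CPM at day 4 and 87.3 to 137 CPM at day 7 (log2 change 1.84 ± 0.24). CYP26B1, which degrades retinoic acid, stood at 0.429 to 1.57 CPM at day 4 and 4.998 to 16.1 CPM at day 7 (log2 change 3.51 ± 0.42) and differed between the day 7 fractions (log2 difference 2.37 ± 0.34, adjusted p = 0.00828). CRABP2, a carrier of retinoic acid to the nucleus, stood at 126 to 408 CPM at day 4 and 6.59 to 10.1 CPM at day 7 (log2 change -4.75 ± 0.37).

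The homeobox genes that give cells their place along the body axis changed in both directions. Of 22 tested HOX and CDX genes 13 rose (8 beyond 2-fold) and 7 fell (5 beyond 2-fold). These were 59.1% and 31.8%, against 31.7% and 31.1% of all genes tested. The 3 CDX genes, which switch on HOX genes in the primitive streak, fell. CDX4 stood at 48.3, 17.2, 82.9 and 27.2 CPM at day 4. CDX4 fell to 1.71, 2.19, 0.994 and 2.18 CPM at day 7 (log2 change -4.62 ± 0.52, adjusted p = 3.12e-05). CDX2 stood at 5.13, 7.79, 66.4 and 5.29 CPM at day 4. CDX2 fell to 2.26, 2.74, 0.941 and 1.65 CPM at day 7 (log2 change -3.47 ± 0.90, adjusted p = 0.00659). CDX1 stood at 0.905, 1.10, 5.02 and 0.715 CPM at day 4. CDX1 fell to 0.0611, 0.183, 0 and 0 CPM at day 7 (log2 change -4.87 ± 1.00, adjusted p = 0.00165). In CDX2 replicate 3 of day 4 stood more than 8-fold above the others. HOXA4 stood at 1.15, 0.552, 3.57 and 0.787 CPM at day 4. HOXA4 rose to 9.72, 7.74, 13.6 and 23.7 CPM at day 7 (log2 change 3.18 ± 0.55, adjusted p = 0.000595). HOXA9, a gene of the aorta region and of blood stem cells that was added after its values were seen, stood at 67.3, 76.8, 126 and 67.03 CPM at day 4. HOXA9 rose to 159, 159, 207 and 201 CPM at day 7 (log2 change 1.13 ± 0.21, adjusted p = 0.00086).

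Of 12 primitive streak genes 6 were tested and 3 fell, and the summed level of the 12 was 70.0 to 85.1 CPM at day 4 and 11.5 to 16.1 CPM at day 7. EVX1, a posterior streak homeobox gene, stood at 60.03 to 67.8 CPM at day 4 and 5.49 to 8.32 CPM at day 7 (log2 change -3.16 ± 0.15) after 283 to 403 CPM at day 2. Of 10 tested pluripotency genes 7 fell. LIN28A, an RNA-binding protein of stem cells and embryonic tissue, was still abundant at day 7, with 931 to 1315 CPM at day 4 and 298 to 346 CPM at day 7 (log2 change -1.76 ± 0.13). SALL4 stood at 267 to 354 CPM at day 4 and 122 to 135 CPM at day 7 (log2 change -1.21 ± 0.12). POU5F1, at 334 to 495 CPM on day 0, had 1.35 to 5.32 CPM at day 4 and 0 to 0.261 CPM at day 7 (log2 change -4.17 ± 0.63). ZFP42 stood at 39.3 to 73.0 CPM at day 4 and 1.94 to 4.47 CPM at day 7 (log2 change -4.10 ± 0.31).

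**Figure D4:**
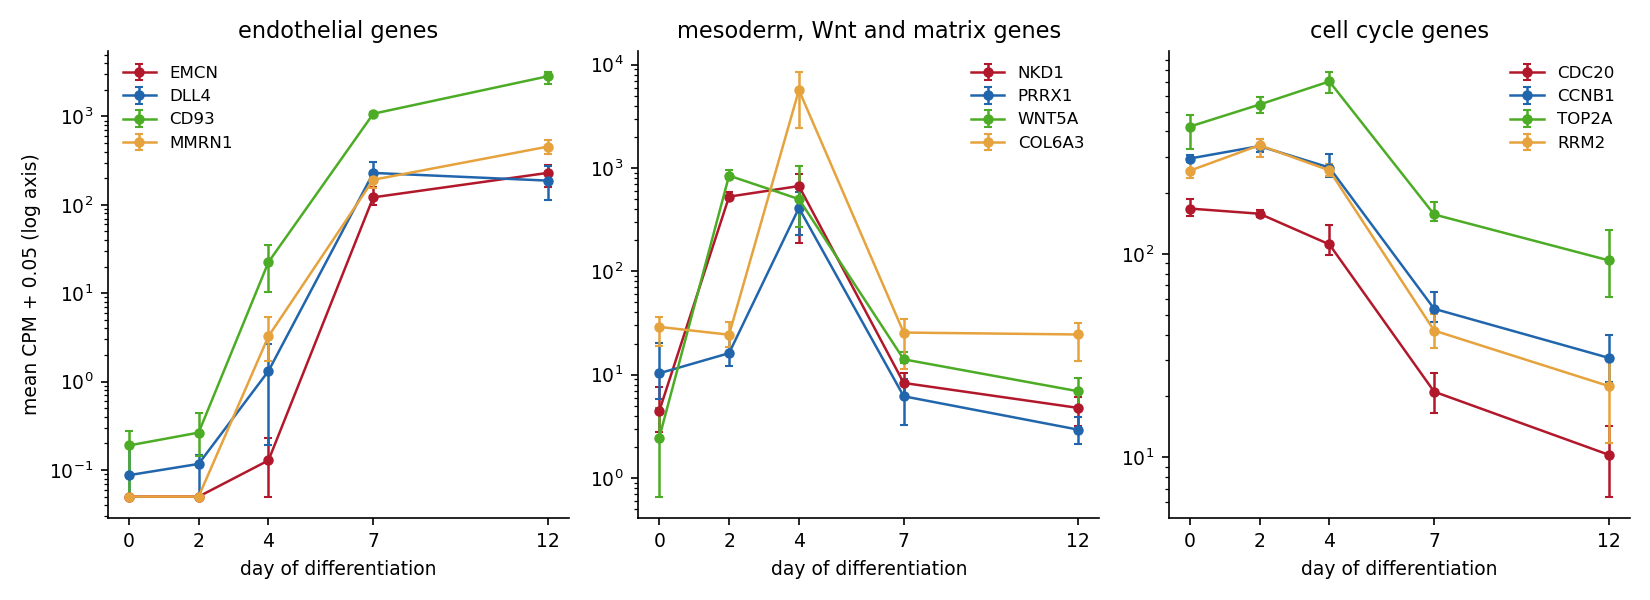
Mean level (CPM, logarithmic axis, bars from the lowest to the highest of 4 libraries) of 12 genes on days 0, 2, 4, 7 and 12 of the wild-type mesoderm protocol; days 0, 2 and 4 are unsorted and days 7 and 12 are the SOX17-positive CD43-negative sort. EMCN, DLL4, CD93 and MMRN1 rise at day 7, NKD1, PRRX1, WNT5A and COL6A3 peak by day 2 or day 4, and CDC20, CCNB1, TOP2A and RRM2 fall from day 4 to day 7 and again to day 12.

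The cell cycle genes fell almost without exception. All 25 mitotic genes were lower at day 7, 24 of them beyond 2-fold, with a median log2 change of -1.78 and no overlap between the groups in any of the 25. Over all genes tested, 58.3% had groups that did not overlap, 29.3% with day 7 lower. CDC20, the activator of the anaphase-promoting complex, stood at 98.9, 101, 139 and 106 CPM at day 4. CDC20 fell to 16.5, 26.02, 20.7 and 20.7 CPM at day 7 (log2 change -2.38 ± 0.16, adjusted p = 1.24e-06). CCNB1, the mitotic cyclin, stood at 239.9, 248, 309.6 and 264 CPM at day 4. CCNB1 fell to 46.3, 64.8, 53.5 and 49.97 CPM at day 7 (log2 change -2.28 ± 0.13, adjusted p = 4.88e-07). BUB1, a kinase of the spindle checkpoint, stood at 134, 147, 183 and 158 CPM at day 4. BUB1 fell to 30.6, 38.9, 33.8 and 31.2 CPM at day 7 (log2 change -2.18 ± 0.12, adjusted p = 4.51e-07). PLK1, a kinase that drives mitosis, stood at 123, 131, 181 and 131 CPM at day 4. PLK1 fell to 28.1, 42.1, 26.7 and 30.1 CPM at day 7 (log2 change -2.13 ± 0.18, adjusted p = 4.17e-06). The 4 fell by similar amounts. TOP2A, the topoisomerase that untangles chromosomes, stood at 659, 616, 783 and 757 CPM at day 4. TOP2A fell to 145, 179, 155 and 146 CPM at day 7 (log2 change -2.15 ± 0.12, adjusted p = 4.12e-07). Of 29 replication genes 28 fell, but 11 beyond 2-fold, with a median of -1.07. RRM2, a subunit of ribonucleotide reductase, stood at 277, 264, 244 and 242 CPM at day 4. RRM2 fell to 40.7, 50.3, 42.2 and 34.5 CPM at day 7 (log2 change -2.59 ± 0.12, adjusted p = 1.69e-07). The list median of the replication genes was smaller in size than that of the mitotic genes. The genes of 3 proteins that license replication origins fell. ORC1 stood at 53.996, 51.1, 81.2 and 63.6 CPM at day 4. ORC1 fell to 14.5, 20.1, 13.5 and 10.8 CPM at day 7 (log2 change -2.06 ± 0.21, adjusted p = 1.55e-05). CDT1 stood at 63.9, 63.2, 138 and 91.8 CPM at day 4. CDT1 fell to 28.4, 29.7, 19.6 and 25.9 CPM at day 7 (log2 change -1.76 ± 0.26, adjusted p = 0.000178). CDC6 stood at 87.6, 90.2, 88.3 and 71.2 CPM at day 4. CDC6 fell to 22.8, 32.1, 25.5 and 19.5 CPM at day 7 (log2 change -1.73 ± 0.15, adjusted p = 5.75e-06). In each the lowest day 4 library was above the highest day 7 library. CCNE1, the cyclin of entry into S phase, stood at 17.9, 18.7, 24.3 and 18.7 CPM at day 4. CCNE1 fell to 4.34, 6.64, 5.02 and 3.88 CPM at day 7 (log2 change -1.97 ± 0.19, adjusted p = 1.04e-05).

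In the same sort at day 12 the mean of each of the 25 mitotic genes was below that of day 7, and in 22 the libraries did not overlap, against 51.7% and 14.6% of all genes tested; this shares the day 7 libraries and is a description. CDC20 was at 6.36 to 14.2 CPM and CCNB1 at 23.3 to 39.9 CPM at day 12. Before day 4 there was no such common direction: day 4 had the lower mean in 10 of the 25 against day 0 and in 14 against day 2. These were 40% and 56%, against 45% of all genes tested in either case. CDC20 was higher at both, at 153 to 186 CPM on day 0 and 151 to 163 CPM on day 2. Between the SOX17-positive and SOX17-negative libraries of day 7 none of the 25 was called, and the median log2 difference was -0.11. The mitotic sum was 4145 to 5147 CPM at day 4, 1157 to 1556 CPM in the SOX17-positive and 1163 to 1735 CPM in the SOX17-negative libraries.

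3 mitotic promoters are shown for the pair of elements known from cell cycle genes, the cell cycle homology region with core TTTGAA and the CCAAT box bound by NF-Y. CDC20 and PLK1 were named above; CCNB2, another mitotic cyclin, was added after its values were seen. CCNB2 stood at 136, 120.4, 164 and 146 CPM at day 4. CCNB2 fell to 27.5, 39.6, 30.02 and 31.98 CPM at day 7 (log2 change -2.11 ± 0.14, adjusted p = 1.1e-06). The windows are again the 250 bases before the RefSeq start in GRCh38.p14, on the gene's strand, with TTTGAA and CCAAT, or the reverse complement of either, in capitals.
CDC20, chr1:43358731-43358980, plus strand: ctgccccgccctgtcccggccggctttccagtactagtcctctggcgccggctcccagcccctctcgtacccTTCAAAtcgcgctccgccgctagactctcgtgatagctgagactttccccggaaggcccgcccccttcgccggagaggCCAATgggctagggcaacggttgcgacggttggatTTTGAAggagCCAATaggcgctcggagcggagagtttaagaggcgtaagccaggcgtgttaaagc
CCNB2, chr15:59104896-59105145, plus strand: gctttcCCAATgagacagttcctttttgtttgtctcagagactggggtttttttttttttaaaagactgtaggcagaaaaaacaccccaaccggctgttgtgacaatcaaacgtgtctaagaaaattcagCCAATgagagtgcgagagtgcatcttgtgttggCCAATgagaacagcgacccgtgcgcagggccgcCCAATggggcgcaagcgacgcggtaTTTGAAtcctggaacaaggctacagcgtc
PLK1, chr16:23678639-23678888, plus strand: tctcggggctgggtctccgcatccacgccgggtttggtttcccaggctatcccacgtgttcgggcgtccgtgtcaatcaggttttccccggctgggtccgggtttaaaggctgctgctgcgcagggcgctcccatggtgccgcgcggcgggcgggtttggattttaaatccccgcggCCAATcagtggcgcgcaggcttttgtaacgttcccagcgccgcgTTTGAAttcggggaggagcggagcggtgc
TTTGAA began 65 bases before the start in CDC20 and 29 bases before it in both CCNB2 and PLK1. CDC20 also held the reverse complement, which began 178 bases before the start. Searched on both strands, TTTGAA was in 52.4% and CCAAT in 85.7% of the 21 mitotic promoters in the table, against 8.72% and 34.8% of the 12415 promoters of all genes tested. Both together were in 47.6% of the mitotic promoters, in 3.54% of all, in 7.45% of those of genes lower beyond 2-fold and in 2.79% of those of genes higher beyond 2-fold. The 3 promoters shown all hold both, so they are examples and do not stand for the mitotic list. Among the 24 replication promoters in the table TTTGAA was in 4.17%, while the E2F-type site GGCGGGAA was in 25.0%, against 4.29% of all. CCAAT was in 62.5% of these 24, so a high share of it was not particular to the mitotic list. It was also in 63.6% of 11 Wnt target promoters and 64.3% of 14 lateral and cardiac mesoderm promoters. The endothelial surface list had it in 26.7% of 15 and the mesenchyme and smooth muscle list in 23.1% of 13. TTTGAA was in 27.3% of the Wnt target, 23.1% of the mesenchyme and smooth muscle, 21.4% of the mesoderm and 20% of the endothelial surface promoters. The arterial list had TTTGAA in 0% of 9 promoters and the transcription factor list in 4.35% of 23. Both elements together were in 18.2% of the Wnt target promoters and in 0% to 7.69% of those of the other lists outside the mitotic one.

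Of 18 tested genes of cyclin-dependent kinase inhibitors and p53 targets 5 rose, a share near that of all genes, and 2 fell, none of the 7 beyond 2-fold. FAS, the death receptor, stood at 4.34 to 5.99 CPM at day 4 and 10.6 to 13.4 CPM at day 7 (log2 change 1.28 ± 0.16). TP53INP1, a p53-induced protein, stood at 36.8 to 84.8 CPM at day 4 and 86.1 to 111 CPM at day 7 (log2 change 0.81 ± 0.21). CDKN1C, the inhibitor p57, stood at 18.6 to 36.7 CPM at day 4 and 19.4 to 21.4 CPM at day 7 (log2 change -0.54 ± 0.18), a fall that was not called without replicate 2 or 4 of day 4 or replicate 3 or 4 of day 7 (adjusted p = 0.069, 0.0577, 0.0571 and 0.0506). The BH3-only gene BBC3 stood at 3.31 to 7.80 CPM at day 4 and 6.90 to 13.8 CPM at day 7 (log2 change 1.03 ± 0.29). PMAIP1, of the same class, stood at 7.73 to 15.7 CPM at day 4 and 3.53 to 8.07 CPM at day 7 (log2 change -1.18 ± 0.28).

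Of 20 genes of MYC and ribosome assembly 7 fell, none beyond 2-fold, and 1 rose. The 35% that fell was near the 31.1% of all genes tested. The MYC family split: MYC stood at 15.7 to 27.7 CPM at day 4 and 7.22 to 12.8 CPM at day 7 (log2 change -1.24 ± 0.21) and MYCN at 44.1 to 56.6 CPM at day 4 and 117 to 139 CPM at day 7 (log2 change 1.46 ± 0.10). The nucleolar protein NPM1 stood at 227 to 363 CPM at day 4 and 139 to 163 CPM at day 7 (log2 change -0.77 ± 0.16). NOLC1, another of the nucleolus, stood at 141 to 218 CPM at day 4 and 87.7 to 122 CPM at day 7 (log2 change -0.64 ± 0.15). BOP1, a factor of the large ribosomal subunit, stood at 41.9 to 70.6 CPM at day 4 and 30.6 to 36.8 CPM at day 7 (log2 change -0.66 ± 0.16).

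Glycolysis genes fell in number but by less: 16 of 26 tested were lower, 5 beyond 2-fold, and 1 was higher. The glucose transporter SLC2A1 stood at 30.5 to 48.1 CPM at day 4 and 6.48 to 16.7 CPM at day 7 (log2 change -1.71 ± 0.25). SLC2A3, the transporter with the higher affinity, stood at 168 to 257 CPM at day 4 and 260.4 to 324 CPM at day 7 (log2 change 0.55 ± 0.14). LDHA, which makes lactate, stood at 308 to 465 CPM at day 4 and 101 to 141 CPM at day 7 (log2 change -1.67 ± 0.16). PKM, the pyruvate kinase, stood at 1028 to 1399 CPM at day 4 and 403 to 510.0 CPM at day 7 (log2 change -1.44 ± 0.13). PFKFB4, a regulator of glycolytic flux, stood at 21.1 to 29.8 CPM at day 4 and 8.01 to 10.2 CPM at day 7 (log2 change -1.49 ± 0.14). EGLN3, an oxygen sensor induced by hypoxia, stood at 4.44 to 12.998 CPM at day 4 and 2.197 to 2.82 CPM at day 7 (log2 change -1.50 ± 0.33). Of 21 genes of cholesterol and fatty acid synthesis 12 fell and 1 rose. LSS, which closes the rings of sterols, stood at 184 to 299.5 CPM at day 4 and 90.6 to 164 CPM at day 7 (log2 change -0.88 ± 0.19). FASN, fatty acid synthase, stood at 999 to 1098 CPM at day 4 and 530.4 to 701 CPM at day 7 (log2 change -0.76 ± 0.12). SC5D, another sterol enzyme, rose, at 205 to 263 CPM at day 4 and 296 to 455 CPM at day 7 (log2 change 0.59 ± 0.15). Of the 13 mitochondrially encoded genes 8 rose (61.5%, against 31.7% of all genes tested) and none fell: MT-CO1 stood at 4106 to 5373 CPM at day 4 and 8816 to 10529.7 CPM at day 7 (log2 change 1.10 ± 0.13). In the knockout line 2 of the 13 were called higher and none lower, against 29.1% higher of all genes. The list's median log2 change was 0.17 there and 0.56 in wild type, and the interaction called none of the 13. The mitochondrial share of the knockout libraries was 3.86% to 5.58% at day 4 and 4.99% to 5.96% at day 7, with overlap.

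Interferon and antigen presentation genes rose: 14 of 22 tested, 12 beyond 2-fold, against 2 that fell. TAPBP, the chaperone that loads class I molecules, stood at 6.76, 7.79, 12.4 and 10.7 CPM at day 4. TAPBP rose to 72.0, 82.0, 70.2 and 79.8 CPM at day 7 (log2 change 3.04 ± 0.18, adjusted p = 6.62e-07). IFIT3, an interferon-induced inhibitor of viral RNA, stood at 0.965, 1.04, 0.786 and 0.644 CPM at day 4. IFIT3 rose to 17.8, 19.3, 15.6 and 15.3 CPM at day 7 (log2 change 4.31 ± 0.18, adjusted p = 1.05e-07). IRF1, a factor of the interferon response, stood at 1.51, 1.17, 2.48 and 0.715 CPM at day 4. IRF1 rose to 11.2, 10.3, 9.94 and 12.5 CPM at day 7 (log2 change 2.91 ± 0.30, adjusted p = 1.83e-05). The groups of these genes did not overlap, as in 58.3% of all genes tested. OAS1, a sensor of double-stranded RNA, stood at 0.121, 0.0614, 0 and 0.143 CPM at day 4. OAS1 rose to 2.75, 5.42, 8.21 and 2.76 CPM at day 7 (log2 change 5.82 ± 0.61, adjusted p = 2.14e-05). PSMB8, a subunit of the immunoproteasome, stood at 0, 0.0614, 0.363 and 0 CPM at day 4. PSMB8 rose to 3.49, 2.68, 2.30 and 2.06 CPM at day 7 (log2 change 4.51 ± 0.62, adjusted p = 0.000123). The 2 that fell encode membrane proteins that restrict viruses. IFITM1 stood at 21.5, 24.3, 26.2 and 16.96 CPM at day 4. IFITM1 fell to 6.85, 9.93, 7.11 and 5.997 CPM at day 7 (log2 change -1.55 ± 0.19, adjusted p = 5.32e-05). IFITM2 stood at 111, 146, 74.1 and 123 CPM at day 4. IFITM2 fell to 72.2, 88.6, 67.2 and 67.4 CPM at day 7 with groups that overlapped (log2 change -0.59 ± 0.18, adjusted p = 0.0159). IFITM1 was at 12.5 to 37.8 CPM in the SOX17-negative libraries, near the day 4 level, and differed between the fractions (log2 difference -1.54 ± 0.31, adjusted p = 0.0394). In 6 of the 8 fits that left out a library IFITM1 was not called between the fractions (adjusted p = 0.0547 to 0.143).

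Of 22 immediate early and stress genes 11 rose (50%) and 4 fell (18.2%), against 31.7% and 31.1% of all genes tested. FOS, a subunit of AP-1, stood at 3.44, 1.60, 0.725 and 1.72 CPM at day 4. FOS rose to 68.2, 50.4, 234 and 25.9 CPM at day 7 (log2 change 5.68 ± 0.76, adjusted p = 0.000106). FOSB, its relative, stood at 0.362, 0.368, 0.121 and 0.0715 CPM at day 4. FOSB rose to 16.8, 13.6, 92.6 and 9.23 CPM at day 7 (log2 change 7.11 ± 1.01, adjusted p = 0.000152). In both, replicate 3 of day 7 was more than 3-fold above the others. JUN stood at 24.6, 19.3, 14.1 and 25.5 CPM at day 4. JUN rose to 148, 172, 166 and 113 CPM at day 7 (log2 change 2.87 ± 0.20, adjusted p = 1.54e-06). ZFP36, which destabilises such transcripts, stood at 7.30, 3.87, 6.05 and 5.72 CPM at day 4. ZFP36 rose to 45.9, 62.3, 70.6 and 34.7 CPM at day 7 (log2 change 3.24 ± 0.26, adjusted p = 3.35e-06). ATF3, a stress-induced factor, went the other way, at 37.3, 62.2, 24.4 and 43.8 CPM at day 4. ATF3 fell to 6.60, 7.19, 5.70 and 4.17 CPM at day 7 (log2 change -2.80 ± 0.28, adjusted p = 1.37e-05). The day 7 cells had been sorted and the day 4 cells had not, and the part of the sort in these values was not tested.

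Of 18 imprinted and embryonic genes 16 were tested, 2 rose (12.5%) and 7 fell (43.8%), against 31.7% and 31.1% of all genes tested. PEG10, a gene derived from a retrotransposon and active in placenta, stood at 271 to 399.7 CPM at day 4 and 25.6 to 36.1 CPM at day 7 (log2 change -3.34 ± 0.17). MEST, another paternally expressed gene, stood at 177 to 418 CPM at day 4 and 77.4 to 85.1 CPM at day 7 (log2 change -1.73 ± 0.23). PLAGL1, a zinc-finger regulator of growth, stood at 100.3 to 205 CPM at day 4 and 510.0 to 683 CPM at day 7 (log2 change 2.06 ± 0.22).

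Genes of other lineages were lower at day 7. Of 10 tested endodermal and epithelial genes 7 fell, and the 1 that rose was SOX17. KRT19, a keratin of simple epithelium, stood at 89.0 to 231 CPM at day 4 and 1.57 to 3.88 CPM at day 7 (log2 change -5.69 ± 0.35), and AFP, alpha-fetoprotein, had 0.784, 3.81, 4.11 and 9.87 CPM at day 4 and no count at day 7, at least 96.6-fold lower. Of 5 tested neural genes 4 fell, with OTX2, a homeobox gene of forebrain and early epiblast, at 16.1 to 49.2 CPM at day 4 and 0.261 to 0.670 CPM at day 7 (log2 change -5.98 ± 0.46) and TUBB3, a tubulin of neurons, at 88.0 to 184 CPM at day 4 and 8.93 to 19.99 CPM at day 7 (log2 change -3.21 ± 0.31).

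Outside the lists, the genes with the highest changes included several with hardly a fragment at day 4. CARTPT, the precursor of the neuropeptide CART, had no count at day 4 and 54.5, 22.1, 53.3 and 111 CPM at day 7, at least 1346-fold higher. PRND, which encodes the prion-like protein doppel, had none at day 4 and 6.97, 8.96, 8.21 and 11.3 CPM at day 7, at least 197-fold higher. Both also differed between the day 7 fractions: CARTPT was at 1.32 to 2.78 CPM and PRND at 0.123 to 0.235 CPM in the SOX17-negative libraries (log2 difference 4.90 ± 0.48, adjusted p = 0.00109, and log2 difference 5.49 ± 0.30, adjusted p = 1.05e-05). TACR1, the receptor of substance P, stood at 0.0603, 0, 0.181 and 0.143 CPM at day 4. TACR1 rose to 48.8, 32.1, 47.6 and 67.4 CPM at day 7 (log2 change 8.93 ± 0.42, adjusted p = 1.67e-07). KCNK17, a potassium channel, stood at 0, 0, 0.423 and 0.0715 CPM at day 4. KCNK17 rose to 56.99, 41.4, 37.1 and 143 CPM at day 7 (log2 change 9.05 ± 0.77, adjusted p = 5.24e-06). ADCY4, an adenylyl cyclase, stood at 2.17, 2.88, 0.907 and 0.859 CPM at day 4. ADCY4 rose to 364, 384, 336 and 334 CPM at day 7 (log2 change 7.71 ± 0.31, adjusted p = 9.09e-08). ADGRF5, an adhesion G protein-coupled receptor of lung and vessels, stood at 1.51, 2.09, 0.484 and 0.644 CPM at day 4. ADGRF5 rose to 160.0, 127, 188 and 180.0 CPM at day 7 (log2 change 7.12 ± 0.33, adjusted p = 1.67e-07). The 4 genes code for receptors, a channel and a signalling enzyme. GIMAP4, a GTPase of lymphocytes and endothelium, stood at 1.09, 0.798, 0.665 and 0.358 CPM at day 4. GIMAP4 rose to 128, 90.6, 113 and 135 CPM at day 7 (log2 change 7.31 ± 0.24, adjusted p = 3.39e-08). The long non-coding RNA LINC02880 stood at 0.784, 0.798, 0.605 and 0.429 CPM at day 4. LINC02880 rose to 129.9, 74.8, 144 and 99.1 CPM at day 7 (log2 change 7.41 ± 0.28, adjusted p = 7.24e-08).

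By CPM the largest gains among protein-coding genes of the nucleus outside the lists were in SPTBN1, a spectrin, at 286 to 436 CPM at day 4 and 1975 to 2250.2 CPM at day 7 (log2 change 2.64 ± 0.15). PLXND1, the semaphorin receptor that patterns vessels, stood at 178 to 208 CPM at day 4 and 1447 to 1698 CPM at day 7 (log2 change 3.07 ± 0.11). IGFBP4, a binder of insulin-like growth factors, stood at 287 to 461 CPM at day 4 and 1387 to 1784 CPM at day 7 (log2 change 2.18 ± 0.16). LIX1, SHOX2, CRH and PAMR1 were among the 15 genes outside the lists with the largest falls on the log scale. LIX1 stood at 313 to 679 CPM at day 4 and 0.157 to 0.549 CPM at day 7 (log2 change -10.49 ± 0.37), and SHOX2, a homeobox gene of limb and sinus node, had 162, 296, 26.7 and 204 CPM at day 4 and 3 fragments in all at day 7, a count ratio of 3709 (95% counting interval 1269 to 17986). CRH, corticotropin-releasing hormone, had 31.9, 48.8, 2.96 and 32.8 CPM at day 4 and no count at day 7, at least 629-fold lower. PAMR1, a secreted protease-like protein, stood at 79.6 to 293 CPM at day 4 and 0.157 to 0.550 CPM at day 7 (log2 change -9.46 ± 0.54). GJA1, the gap junction gene connexin 43, fell from 800.1 to 1768 CPM at day 4 to 331 to 473 CPM at day 7 (log2 change -1.73 ± 0.22), yet was higher in SOX17-positive than in SOX17-negative libraries, which held 123 to 233 CPM (log2 difference 1.05 ± 0.19, adjusted p = 0.0259; 0.0604 to 0.0951 in 4 of the 8 fits that left out a library).

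Transcript classes did not share the balance of higher and lower calls. Of 14417 protein-coding genes tested 4343 were higher and 5062 lower. Of 752 long intergenic RNAs 334 were higher and 107 lower, and of 125 sense intronic transcripts 77 and 8. Of 2082 antisense genes 748 were higher and 405 lower; the labels and files used here do not state the strand setting of the counting, so their reads cannot be told apart from those of the genes they overlap. Processed pseudogenes went the other way, with 135 higher and 395 lower of 1043, and their reads may belong to their parent genes. The higher mitochondrial share at day 7 and the day 7 sort coincide with this shift, and their part in it was not tested.

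The same step in the RUNX1-edited line, measured in 8 libraries that the wild-type comparison does not use, called 11941 of 20176 genes (59.2%). Without replicate 4 of the edited day 4 libraries it called 13373 genes, against 10726 to 11736 without any other single library. RUNX1, the edited gene, was counted there over the whole gene, so that its level does not check the deletion of 1 domain: it stood at 66.2, 22.4, 34.7 and 3.04 CPM in the edited day 4 libraries and 37.1, 36.2, 28.01 and 41.4 CPM in the edited day 7 ones, with groups that overlapped. Of the 2472 genes higher beyond 2-fold in wild type 2420 were tested there, and 2375 were called, all of them higher; of the 1625 lower genes 1534 were tested and 1521 were called, all lower. The median log2 changes of those tested were 2.24 in wild type and 2.17 in the edited line for the higher genes and -2.51 and -2.64 for the lower ones. The interaction of genotype with the step, fitted over the 16 libraries, called 0 of 21421 genes in edgeR (726 had an unadjusted p under 0.05), and DESeq2 called 8. Without replicate 4 of the edited day 4 libraries edgeR also called 0. DLL4 changed by 7.49 in wild type and 5.77 in the edited line, EMCN by 10.48 and 11.44, and CDC20 by -2.38 and -2.87. RUNX1 changed by 1.35 in wild type and 0.17 in the edited line (interaction -1.16 ± 0.73, adjusted p = 1). MYCN stood at 1.46 and 0.35 (interaction -1.09 ± 0.20, adjusted p = 0.476). Neither difference passed the test over all genes.

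**Figure D5:**
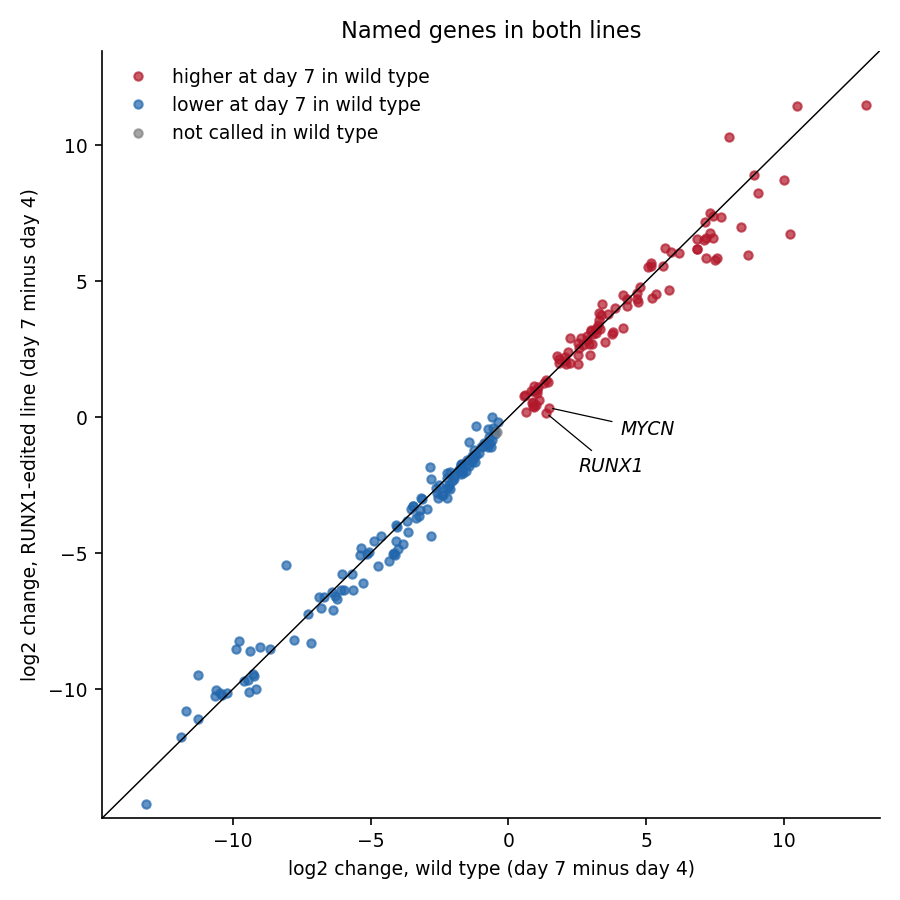
Log2 change from day 4 to day 7 SOX17-positive cells in the wild-type line (horizontal) and in the RUNX1-edited line (vertical), with 1 point for each gene named by the selection rule and tested in both, coloured by the direction called in wild type, and the line of equal change; fitted changes of genes with 0 to 3 counts in a group depend on the prior count. Of 223 points 203 lie within 1 log2 unit of the line; RUNX1 (1.35 and 0.17) and MYCN (1.46 and 0.35) are labelled.

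The other stages of the wild-type series place these genes in time. Of the 2472 genes higher beyond 2-fold, 870 had a mean under 1 CPM at both day 0 and day 2, and 721 of these were also under 1 CPM at day 4; 1525 were as high or higher at day 12 in the same sort. Counted separately over the same 2472, 205 had been at or above the day 7 level at day 0. Of the 1625 genes lower beyond 2-fold, 523 were as high or higher at day 0 as at day 4 and 1017 were as low or lower at day 12 as at day 7. These groups share the day 4 and day 7 libraries and are given as a description. Over all genes tested, the mean was lower at day 12 than at day 7 in 51.7% and lower at day 4 than at day 0 in 45%. For the counts under 1 CPM and the 205 genes no share of all genes is given. EMCN reached 158 to 281 CPM at day 12, CD93 2342 to 3187 CPM and LYVE1 38.3 to 223 CPM, while RUNX1 was at 34.6 to 87.9 CPM. MESP2, a gene of nascent mesoderm, was at 14.5 to 24.6 CPM at day 2. It stood at 0.664, 1.66, 1.15 and 1.50 CPM at day 4. MESP2 fell to 0.0611, 0.183, 0.157 and 0.235 CPM at day 7 (log2 change -2.87 ± 0.43, adjusted p = 0.000218). TAGLN, low in both groups, had been at 278 to 479 CPM in the undifferentiated cells of day 0.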

How the data were processed

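RNA-seq libraries were analysed from the fragment counts per gene that the authors deposited (58302 gene identifiers, 65 libraries, 10366048 to 19081031 counts each). Per the submitters' processing notes the tools included cutadapt 1.18, featureCounts and R 3.2.2 on genome build GRCh38. The authors also deposited log2 RPKM values (a table with the same zeros as the counts), used here for 1 alternative. GENCODE 29 held 58039 of the identifiers. Symbols came from a list of gene names, or from GENCODE 29 where that list gave none, and 56493 identifiers carried a symbol.

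Counts were tested in R 4.3.3 with edgeR 4.0.16 (TMM scaling, genes kept by filterByExpr at min.count 10 and min.total.count 15, quasi-likelihood F test, Benjamini-Hochberg adjusted p under 0.05), each comparison on its own libraries, and with glmTreat at a log2 threshold of 1 for changes beyond 2-fold. CPM values used TMM factors over the 52 mesoderm-protocol libraries. The edgeR procedure was tested on simulated data in which far fewer genes changed than differed here. That simulation thus does not cover a comparison in which most genes differ. Alternatives were DESeq2 1.42.0, limma 3.58.1, other scaling, no filter, single libraries left out and the replicate number as a block; none of the labels ties equal numbers to 1 differentiation.

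The text names EMCN, VWF, DLL4, the gate genes and RUNX1, up to 5 called members per list with the largest changes and up to 2 against the list's majority direction, and outside the lists the 15 highest and 15 lowest genes by log2 change and the 8 with the largest CPM difference in each direction; only some of the latter are printed. Some genes that the rule names are not reported here. Genes outside this rule are marked as added after their values were seen, apart from fixed cell type markers. The members and lists were chosen with earlier results of these data known. Promoters are those of RefSeq (GRCh38.p14), found by symbol for 12415 of the 20028 genes tested. Where all libraries of a group were at 0, folds were set against 3 counts over the group. Intervals and floors cover counting error only.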

Additional observations from a re-analysis of the deposited data

Results flagged for a closer look

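Single libraries stood far from the other 3 of their group in 34 of 418 groups of 4 that were examined (the day 4 and the day 7 libraries of 209 named genes) by Dixon's criterion; chance alone flags about 1 in 20 groups. Replicate 3 of day 4 accounted for 15 of them. It was the highest in 12, with CPM values of 24.3 in CCNE1, 5.02 in CDX1, 66.4 in CDX2, 200.2 in FGF19, 126 in HOXA9, 218 in NOLC1, 0.423 in KCNK17, 181 in PLK1, 0.363 in PSMB8, 6.53 in STAB2, 1040.3 in WNT5A and 73.0 in ZFP42. The nearest other day 4 library held 7.79 CPM in CDX2, 36.5 in FGF19 and 352 in WNT5A. It was the lowest in 3, at 149.99 CPM in FZD7, 78.4 in TIMP3 and 1099.8 in VCAN, where the nearest other library held 327, 135 and 2569 CPM.

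The other day 4 libraries that stood alone were replicate 4, highest in ADAMTS1 at 513 CPM, NANOG at 0.286 and SOX2 at 0.143 CPM and lowest in CDC6 at 71.2 CPM, and replicate 2, highest in MYCN at 56.6 CPM. At day 7, replicate 3 was the highest in FOSB (92.6 CPM against 16.8 in the next library), RUNX1 (149 against 92.1), SC5D (455 against 322) and STAB2 (183 against 52.05). Replicate 4 was the highest in ANGPT2 (5.53 CPM against 2.86), FGFR2 (34.8 against 20.4), PDGFRB (2.82 against 1.28) and the arterial gap junction gene GJA5 (262 against 119). Replicate 2 was the highest in PKM at 510.0 CPM and in PTPRC at 0.0609 CPM, and replicate 1 in WNT5A at 16.5 CPM, in DKK2 and RUNX3 at 0.122 CPM each and in NANOG at 0.0611 CPM. The values under 1 CPM rest on a few fragments each.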

How the results depend on the processing

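The count of genes that differed between day 7 and day 4 was 11666 to 13468 with single libraries left out and 11875 to 14804 under the other alternatives. Beyond 2-fold it was 3960 to 4579 and 3204 to 5261, the lowest in DESeq2 and the highest without a filter on low counts. The edited line gave 10726 to 13430 genes and the SOX17-negative against day 4 comparison 8213 to 11687. The comparison of the day 7 fractions was the one that moved: against 208 genes, 503 were called without a filter, 495 in DESeq2, 115 in limma-trend on log2 RPKM, and 92 to 400 with single libraries left out (400 without replicate 4 of the SOX17-negative libraries), when 4 to 11 arterial and 2 to 4 endothelial surface genes were higher against 10 and 4. The genotype interaction called 8 genes in DESeq2. Of the list counts against day 4, each in its majority direction, 2 moved by more than 1.5 times: the retinoic acid genes that fell were 5 without a filter or without replicate 4 of day 7, and the kinase inhibitor and p53 genes that rose were 3 when 52 libraries shared a fit. In each case the cause was not tested.

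With the replicate number as a block the first comparison called 11875 genes, 3961 of them beyond 2-fold, the edited line 10842, the SOX17-negative against day 4 comparison 8291, the day 7 fractions 395 (194 higher and 201 lower) and the interaction 1; ACTA2, BMPER and DLL3 then lost their call against day 4 (adjusted p = 0.0658, 0.0578 and 0.0694). Deviations of same-numbered libraries correlated at -0.09 to 0.016 between day 4 and day 7, and at 0.069 to 0.36 between the day 7 fractions, where each library correlated best with its own number; the numbers were not taken to pair the libraries.

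Of 2853 values recomputed for 204 named genes against day 4, 2814 kept their direction and their side of the threshold, 29 in 8 genes lost their call and 2 in JAM2 gained one. The 8 that changed sign belonged to 3 genes that were not called: CXCR4, which ranged from -0.65 without replicate 4 of day 7 to 0.37 without replicate 1 of day 4 and was 0.15, 0.08 and 0.19 without replicate 1, 2 or 3 of day 7, SPN, which ranged from -0.71 without replicate 1 to 0.03 without replicate 3 of day 4, and DCN, which ranged from -0.14 to 1.05 with single libraries left out and was -0.04 without replicate 1 of day 4 and -0.03 without replicate 4 of day 7. Between the day 7 fractions 180 of 195 values for 15 genes kept their side, and 15 in DLL4, GJA1, GJA5 and IFITM1 lost their call; IFITM1 had an adjusted p of 0.0547 to 0.143 in 6 of the 8 fits that left out a library.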
